A study of Triticum aestivum with 16 samples.

Results

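SB146 is 1 of 8 recombinant inbred lines of bread wheat, all derived from the parents Seri M82 and Babax, whose flag leaves were profiled on an Affymetrix wheat array. Its 2 arrays, 1 from each field replicate, were set against the 14 arrays of the other 7 lines, out of 16 arrays in all. The others were SB15, SB33, SB53, SB80, SB138, SB165 and SB189, also with 2 arrays each. All lines were grown with irrigation at 1 site in 2007 and sampled 6 to 8 days after anthesis, and the labels name no treatment. SB146 is a single genotype, and the parents were not analysed here. The labels give no water soluble carbohydrate level for any line, although the title of the series names differences in it as its subject.

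The flag leaf is the last leaf below the ear and a main source of sugar for the filling grain. Sugar that is not exported is held for a time as sucrose, starch or fructan, and fructan is a chain of fructose units that wheat stores in the vacuole. Fructosyltransferases build fructan and fructan exohydrolases take it apart. In a recombinant inbred line most loci are fixed for the allele of 1 parent, so sister lines share alleles at some loci and not at others.

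Values are log2 levels, and a difference of 1 is a doubling. A probe set is a group of short probes designed for a transcript. Some, such as those whose full names end in x_at, may bind more than 1 transcript. Probe sets whose names share a stem, such as Ta.3242, belong to 1 transcript cluster. A probe set with no annotated gene is given here by the name of its cluster, and the full names of those with the largest differences stand in the plot of their line means. The values run from a floor of 2.25 to 16.67, and of 61115 probe sets tested, 19740 had a mean of 5 or more over the 16 arrays. These brighter probe sets carry the description below, except where dimmer ones are named. The arrays have no read depth, and their number limits the precision. In whole leaves, fewer cells of a type and less RNA per cell cannot be told apart.

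Transcripts of photosynthesis, which mark green leaf, were among the highest in these samples, such as petC (the Rieske protein of the cytochrome b6f complex) with a mean of 15.3. Of 18 probe sets for developing grain markers, 2 had a mean of 5 or more, the higher of them 11.6. The mean level of the list was 2.97 in SB146 and between 2.97 and 2.99 in the others. The list of anther and pollen markers held 1 gene, whose 2 probe sets were high, at 13.4 and 14.3. The mean of that list was 13.8 in SB146 and 13.8 to 13.9 in the others. No cell type is read from these levels. The 2 SB146 arrays correlated at 0.9892 over the brighter probe sets, the lowest of the 8 lines, and the other pairs of replicates lay between 0.9904 and 0.995. The 18S rRNA control read 5.11 and 8.59 in SB146, which made it the lowest line, and from 6.12 to 12.1 in the others with a median of 9.34. Its part in the results was not tested.

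SB146 differed from the mean of the other 7 lines at 421 of the 19740 brighter probe sets, or 2.13% (limma, adjusted p under 0.05). Of these, 238 were higher in SB146 (1.21%) and 183 were lower (0.927%). The median size of the difference was 0.871 among the 421, and the median difference over all brighter probe sets was 0.0064. A difference of 1 or more was found at 181 of them (0.917%), 102 higher (0.517%) and 79 lower (0.4%), and a difference of 2 or more at 57, 27 higher and 30 lower. Both SB146 arrays lay within 0.5 of each other at 382 of the 421. They were over 1 apart at 10, of which 8 were lower in SB146 and 2 higher. The median difference between the 2 SB146 arrays was 0.14 at the 421 and 0.147 over all brighter probe sets. The test favours close replicates, so closeness at the 421 is no separate support. Other lines gave from 220 probe sets (SB33) to 1242 (SB80) by the same test, and SB138 gave 421 as SB146 did. The contrasts share arrays.

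The count depends on which probe sets are tested and on what the other lines are taken to be. The adjustment, and the prior for the spread between replicates, cover all 61115 probe sets, many of them at the floor. When the 19740 brighter probe sets alone were fitted and adjusted, 901 passed in place of 421 (4.56%), 541 higher (2.74%) and 360 lower (1.82%), and 401 of the 421 were among them. The main test uses the spread between replicates of a line, and SB146 differed from the average of lines that also differ among themselves. With the other 7 lines taken as 1 group, so that the spread between them counted as error, 29 brighter probe sets passed in place of 421, and 27 of the 29 were among the 421. Without either SB146 array, the counts were 416 and 431, of which 247 and 229 were among the 421, and the single SB146 array left is then assumed to vary like the other lines.

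**Figure D1:**
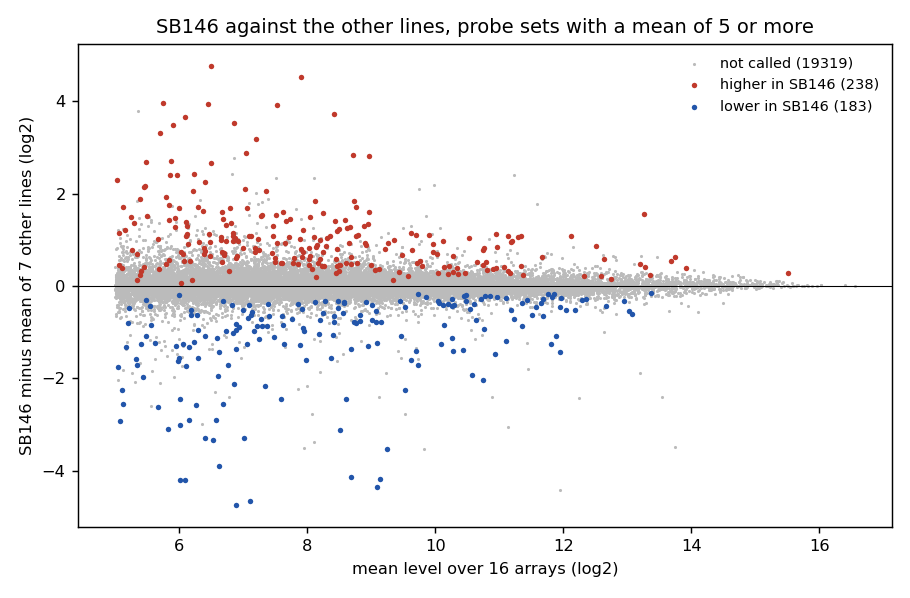
Difference of SB146 from the mean of the other 7 lines (vertical axis, log2) against the mean level over 16 arrays (horizontal axis, log2) for 19740 probe sets with a mean of 5 or more. Red points are the 238 that were higher and blue points the 183 that were lower, with differences from -4.74 to 4.76, and grey points did not pass.

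Of the 421 probe sets, 410 have no gene in the annotation used here, and the 11 others stand for 11 genes. They are 11 of 690 annotated brighter probe sets (1.59%), 3 higher (0.435%) and 8 lower (1.16%). The median difference of the annotated probe sets was -0.011. Most of these genes carry only a locus number, and no function is given for them. All 11 calls ended with the other lines as 1 group, and 10 of them, all but LOC543471, ended when SB80 and SB165 were both left out. All 11 passed in the fit of the brighter probe sets alone, where 27 annotated probe sets of 24 genes passed (3.91% of 690), 13 genes more than the 11.

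The annotated gene with the largest rise was LOC100049056. It read 8.01 and 7.77 in SB146, and from 5.06 to 7.68 with a median of 6.67 in the other 14 arrays. SB146 lay above every other array, but SB15, SB53 and SB189 came near and SB80 and SB138 were lowest. The difference was 1.33 (SE 0.214, limma adjusted p = 0.0289), and the call ended without SB165 and without either SB146 array. LOC100037560 read 9.93 and 9.60 in SB146, and from 7.50 to 10.09 in the others. SB189 was as high as SB146 (10.09 and 9.68), and SB80 was lowest (7.82 and 7.50). Its difference was 1.104 (SE 0.168, limma adjusted p = 0.0229), a call that was lost without SB80 and without replicate 1 of SB146. A probe set of the same cluster, Ta.3976, with no gene was higher by 1.44 (limma adjusted p = 0.00372) with the same 2 lines at the top. Its call ended with the other lines as 1 group.

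LOC780602 was higher by 0.48 (limma adjusted p = 0.0292), and 2 of the other lines were far below the rest. SB146 read 8.20 and 8.35, while SB80 read 5.27 and 5.26 and SB189 6.36 and 5.99. The 5 remaining lines lay between 8.49 and 8.85, all above SB146. The call ended without SB80, without replicate 2 of SB146 and with another prior, and the gene's 4 other probe sets did not pass.

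Among the 8 lower genes, LOC542782 had the largest difference. It read 6.75 and 6.29 in SB146 and from 6.82 to 8.19 in the others, with SB15 nearest (7.08 and 6.82). SB146 was below all 14 arrays, by 1.09 against the line means (SE 0.163, limma adjusted p = 0.0208), and the call ended without replicate 2 of SB146. LOC542888 read 7.08 and 7.09 in SB146, and SB53 (7.22 and 7.67) and SB138 (7.52 and 7.31) were also low against 8.03 to 8.92 in the remaining lines. Its difference was -0.98 (limma adjusted p = 0.0413), and the call ended without SB80, SB165, replicate 1 of SB15 or either SB146 array, and with array weights, another prior or the field replicate as a block. LOC100037537, a transcript near the top of the scale, read 12.63 and 12.46 in SB146. SB53 read 12.65 and 12.57 and SB138 12.61 and 12.94, so these lines overlapped with SB146. The difference was -0.61 (limma adjusted p = 0.0202), and the call ended without SB165 and without replicate 2 of SB146.

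The smallest of the annotated differences was the most evenly separated. LOC543471 read 12.10 and 12.13 in SB146 and from 12.26 to 12.51 in the other 14 arrays. It was lower by 0.28 (SE 0.0318, limma adjusted p = 0.00556). This call held in every alternative tried except that with the other lines as 1 group. LOC542934 was lower by 0.45 (limma adjusted p = 0.0258), reading 11.48 and 11.64 against 11.73 to 12.29, and its 2 other probe sets differed by -0.065 and -0.21 without passing. The call ended without SB165 and without replicate 1 of SB146.

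The last 2 annotated genes split the lines into levels. LOC542911 read 10.07 and 9.81 in SB146, level with SB33, SB80, SB165 and SB189 (9.96 to 10.16), while SB15, SB53 and SB138 lay between 10.66 and 10.81. LOC542912 read 7.98 and 8.01 in SB146, just under 5 lines at 8.04 to 8.25, while SB80 (8.61 and 8.79) and SB189 (8.77 and 8.77) were higher. Their differences from the mean of the lines were -0.41 and -0.32 (limma adjusted p = 0.0353 and 0.0413). The first call ended without replicate 2 of SB146 and with equal medians, and the second without either SB146 array, replicate 2 of SB53, SB80 or SB165. Both ended after quantile normalization, with another prior and with the field replicate as a block. In both genes SB146 lay close to 4 or more lines.

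**Figure D2:**
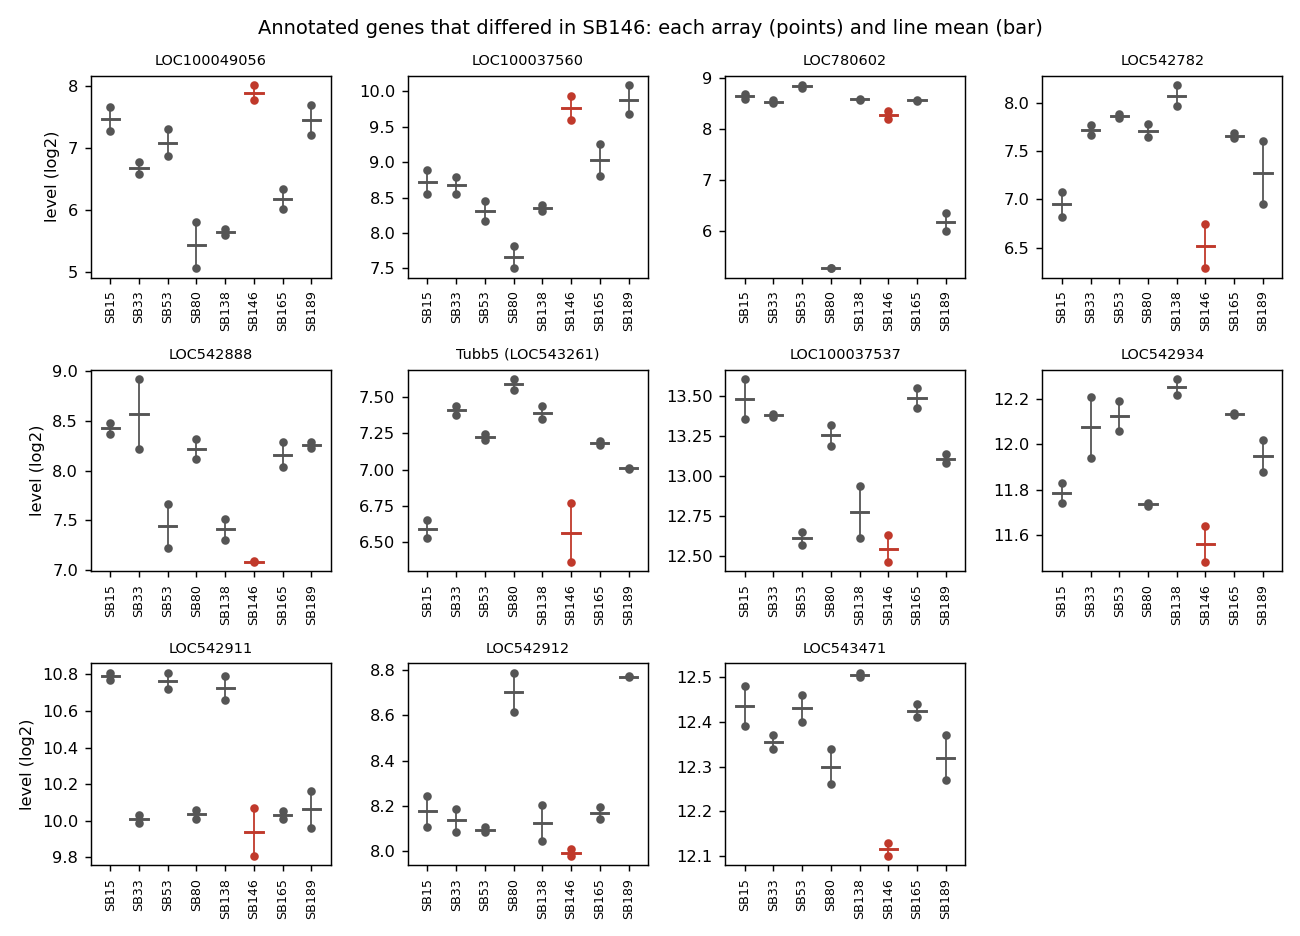
Level (log2) of the 11 annotated genes that differed in SB146, 1 panel a gene, with points for the 2 arrays of each line, a bar at the line mean and SB146 in red. Both SB146 arrays lie below all others for LOC543471 (12.10 and 12.13), and also for LOC542782, LOC542888, LOC542934 and LOC542912. For LOC542911 SB146 is level with 4 other lines.

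Tubulins are the subunits of microtubules, which guide the laying down of cellulose in the cell wall. 7 of the 10 tubulin probe sets were among the brighter ones, and 1 of the 7 was lower and none higher, where 0.927% of all brighter probe sets were lower. In the fit of the brighter probe sets alone 3 of the 7 were lower and none higher, against 1.82% lower overall. The median of the 7 differences was -0.46, against 0.0064 over all brighter probe sets. The beta tubulin Tubb5 (LOC543261) read 6.77 and 6.36 in SB146 on 1 of its 2 brighter probe sets, and from 6.52 to 7.63 in the others. SB15 was as low (6.66 and 6.53) and SB80 highest (7.63 and 7.55). Tubb5 fell by 0.64 on the log2 scale against the mean of the lines (SE 0.0833, limma adjusted p = 0.0112), and SB146 overlapped with SB15 alone.

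The second Tubb5 probe set read 5.39 and 6.02 and differed by -0.54 (limma adjusted p = 0.194, and 0.0451 in the fit of the brighter probe sets alone). The beta tubulin tubb1 read 7.38 and 7.456 in SB146, just below the 7.465 to 8.37 of the other arrays, and differed by -0.53 (limma adjusted p = 0.132, and 0.03 in that fit). For tubb2 the difference was -0.46 (limma adjusted p = 0.792). These differences kept their sign after quantile normalization and after shifting arrays to equal medians. The remaining differences were -0.031 for TUBA, 0.020 for tubb3 and -0.072 for Tubb4, and that of tubb3 changed sign with equal medians. The beta tubulins are alike in sequence, and probe sets ending in x may bind more than 1 of them.

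None of the other gene lists had a called member, in the main fit or in that of the brighter probe sets alone. Fructan exohydrolases had 3 brighter probe sets. The brighter probe set of 6-FEH read 8.83 and 8.97 in SB146, and from 8.27 to 10.06 in the others. Its difference was -0.26 (limma adjusted p = 0.53), with SB15, SB165 and SB138 below SB146 and SB80 and SB33 highest. The second 6-FEH probe set differed by 0.028 and 1-FEHw2 by -0.038.

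None of the probe sets annotated with the 8 listed genes of photosynthesis was called. The 13 brighter probe sets of carbon fixation had a median difference of 0.0056 and ranged from -0.19 to 0.080. The 5 of photosynthetic electron transport ranged from 0.011 to 0.27. The 2 brighter probe sets of starch synthesis, both of ADP-glucose pyrophosphorylase (which makes the precursor of starch), had a median of 0.13. Translation (7 probe sets, median -0.084), histones (4, -0.064), transport (4, 0.078), antioxidants (4, 0.20), defence (3, 0.14) and gibberellin synthesis (2, 0.062) had no call either. The 1 brighter heat shock probe set differed by -0.18 (limma adjusted p = 0.182), and no dehydration or cold gene had a mean of 5. The zinc finger factor WZF1 read 7.98 and 7.67 in SB146, within the 6.03 to 8.27 of the others, and differed by 0.63 (limma adjusted p = 0.411).

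The annotation used here names no fructosyltransferase, but most of its genes carry only a locus number, so it does not settle whether LOC542773, LOC542774 or another of these encodes one. Cluster Ta.2789 was low in SB146 on all 4 of its probe sets, and LOC542773 is the gene of 2 of them. The cluster was named after its values were seen. LOC542773 read 8.41 and 8.29 on the brighter of its 2 probe sets in SB146, where SB165 read 8.71 and 8.19, SB15 9.29 and 9.05, and SB189 10.09 and 11.44. Its differences were -1.57 and -1.41 (limma adjusted p = 0.068 and 0.0891). Both passed in the fit of the brighter probe sets alone (limma adjusted p = 0.00717 and 0.0108), without probe sets at the floor and with equal medians. The 2 probe sets with no gene were both lower by 1.26 (limma adjusted p = 0.0275 and 0.0258). Both calls ended without SB80, without either SB146 array and with the other lines as 1 group. The first also ended when SB80 and SB165 were both left out. SB146, SB165 and SB15 were the low lines and SB80 and SB189 the high ones on each probe set. LOC542774 differed by -1.10 (limma adjusted p = 0.164, and 0.0273 in the fit of the brighter probe sets alone), again with SB146, SB165 and SB15 lowest.

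4 further annotated genes had a difference of 2 or more in size without passing. LOC778410 read 5.71 and 11.25 in SB146 (difference -3.05, limma adjusted p = 0.609), and LOC543448 read 3.53 and 7.77 (-2.77, limma adjusted p = 0.416). LOC100037528 (4.65 and 3.08, difference -2.11) and LOC780687 (3.77 and 3.21, -2.07) had adjusted p-values of 0.0865 and 0.0927, and passed in the fit of the brighter probe sets alone (limma adjusted p = 0.00968 and 0.0108). In the first 2 the SB146 arrays lay far apart. These genes were named after their values were seen.

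**Figure D3:**
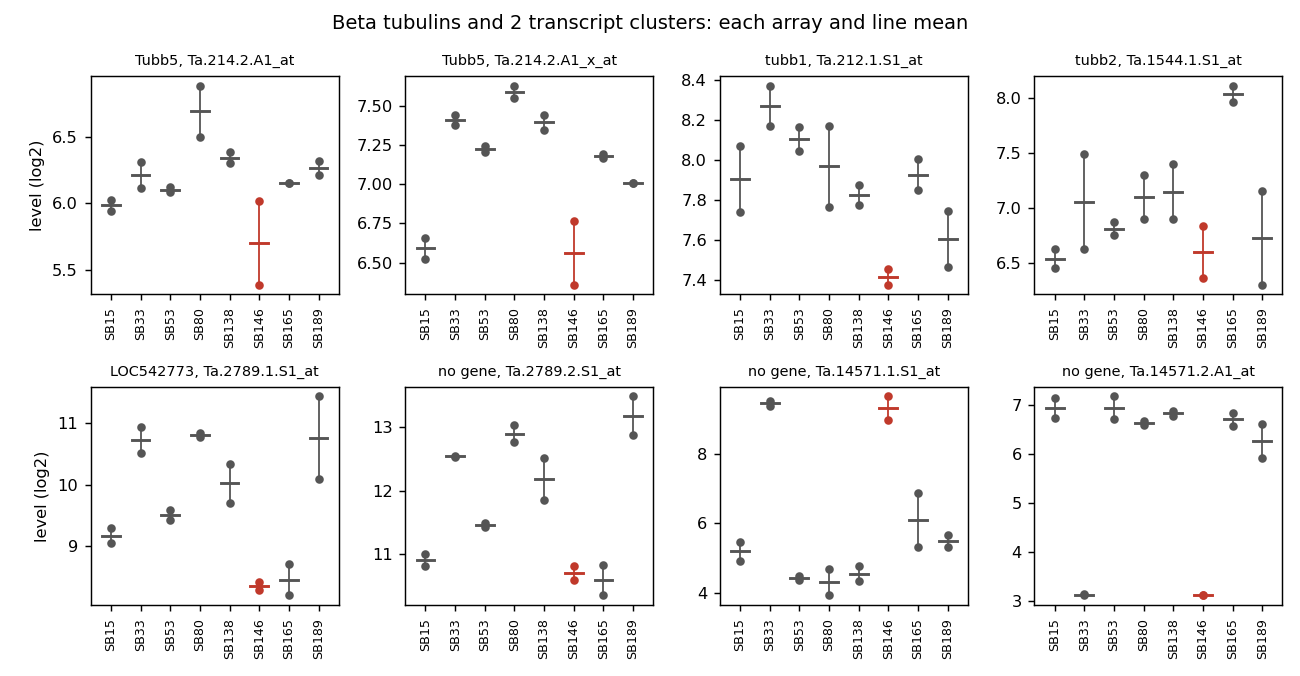
Level (log2) in each array (points) and line mean (bar) for 4 beta tubulin probe sets, 2 probe sets of cluster Ta.2789 and 2 of cluster Ta.14571, with SB146 in red. SB146 is high on the first Ta.14571 probe set (8.97 and 9.64) and low on the second (3.12 and 3.13), and SB33 does the same.

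Most of the largest differences were at probe sets that were high in some lines and near the floor in others. In clusters Ta.3242, Ta.6828 and Ta.22426, other brighter probe sets were not called. A level is a probe signal, and whether the lines differ in how their transcripts bind the probes was not tested. 1 probe set of cluster Ta.22426 read 10.57 and 10.77 in SB146, and SB138 (10.74 and 10.49) and SB165 (10.43 and 10.65) were level with it. The remaining lines lay between 2.64 and 6.79. The difference from the mean of lines was 4.76 (SE 0.759, limma adjusted p = 0.0277). The call ended without SB80, alone or with SB165, without either SB146 array and with the other lines as 1 group. A second probe set of the cluster had the same lines high and a difference of 3.71, and its 3 other probe sets were not called.

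Ta.9531 read 11.59 and 12.12 in SB146. SB33, SB165 and SB189 were as high (11.16 to 12.02), SB15 was between (7.01 and 6.32), and SB53, SB80 and SB138 lay from 2.94 to 3.57. The difference was 4.52 (SE 0.211, limma adjusted p = 5.2e-05). The cluster Ta.3242 had the same lines in the same places on 3 probe sets, with SB146 at 9.77 and 10.03 on 1 of them and SB53, SB80 and SB138 at 2.25 to 2.30. Its differences were 3.95 and 3.91 on the 2 of them with the largest values. The other probe set of Ta.3242 read 9.53 and 9.57 in SB146 and 9.34 to 9.69 in the others, and was not called. A probe set of cluster Ta.30560 read 9.12 and 9.31 in SB146, with SB15 and SB33 as high and SB189 lower (6.74 and 7.30), and was near the floor in SB53, SB80, SB138 and SB165. The calls of Ta.9531, Ta.30560 and the 3 Ta.3242 probe sets ended with the other lines as 1 group. They held in the other alternatives tried.

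The probe sets that were low in SB146 followed other groupings. TaAffx.56231 read 3.15 and 2.31 in SB146, with SB53 (3.10 and 3.08) and SB15 (4.87 and 4.48) also low and the other 5 lines from 7.90 to 9.45. The difference of -4.74 was the largest of all lower ones (SE 0.230, limma adjusted p = 6.3e-05). Ta.3527 and a probe set of cluster Ta.28744 had SB146, SB15 and SB53 low in the same way, with differences of -4.21 and -4.19. In cluster Ta.6828 1 of 4 probe sets was called, and it was near the floor in SB146 (3.47 and 2.60) and SB138 (2.60 and 2.72) and read from 8.04 to 8.77 in the rest, a difference of -4.65. The calls of TaAffx.56231, Ta.3527, Ta.28744 and Ta.6828 ended with the other lines as 1 group. They held in the other alternatives tried.

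**Figure D4:**
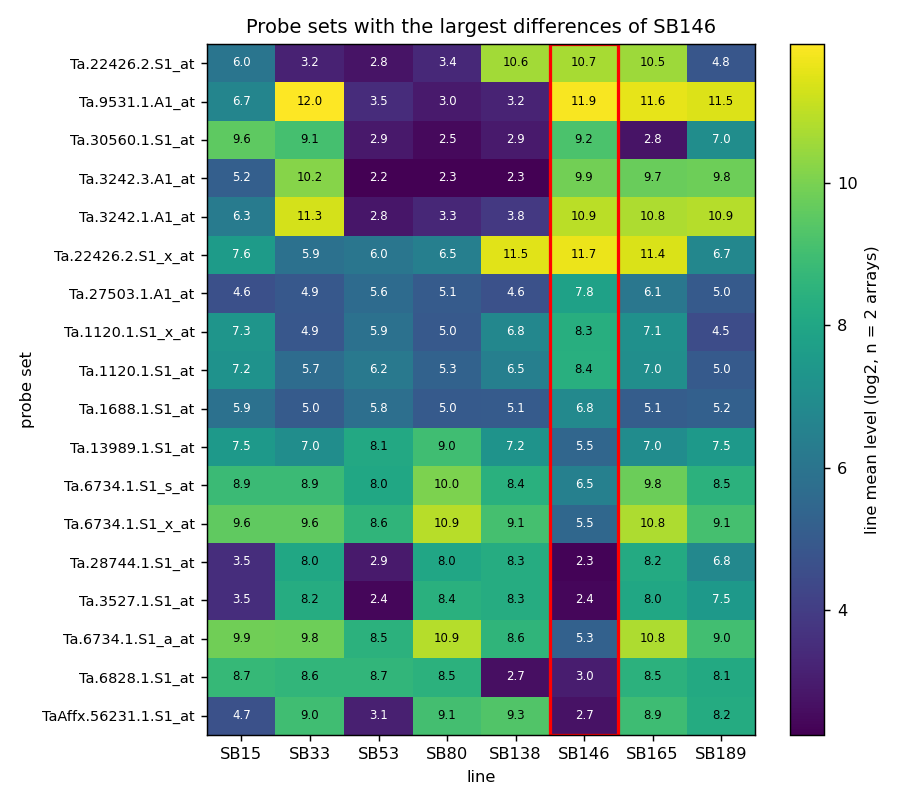
Line means (log2, 2 arrays each) of the 18 probe sets with the largest differences in SB146 or the largest gaps to the nearest line, ordered by difference, with SB146 outlined in red and values printed in the cells. For Ta.9531, SB146 shares its level with SB33, SB165 and SB189, and for the Ta.6734 probe sets it stands below every other line.

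Such steps were counted over the brighter probe sets. In 191 of them the line means, put in order, had a gap of at least 2 at their widest place, and SB146 was on the high side in 113 and on the low side in 78. 93 of the 191 were called in SB146, and 48 of the 57 called with a difference of 2 or more were among them. SB146 shared its side most often with SB138 (73.3% of the 191), SB15 (71.2%), SB53 (70.7%) and SB33 (68.6%). It shared it with SB165 in 54.5%, SB189 in 52.9% and SB80 in 47.1%. In 2 of the 191 SB146 was alone on its side, and both belong to cluster Ta.6734.

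Among the 93, the most frequent grouping had SB146 high with SB15, SB33, SB53, SB138 and SB165 against SB80 and SB189, in 15 probe sets of 12 clusters. In 14 probe sets only SB80 was low, so SB146 was called there although it lay with 6 other lines. In 8, SB146 was low with SB15 and SB53, and in 6 with SB15 and SB138. The 5 probe sets with SB146, SB33, SB165 and SB189 high were the 3 of Ta.3242, Ta.9531 and TaAffx.25219.

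In direct pairs, p-values were adjusted over all probe sets and the 7 pairs with SB146. SB146 differed from SB80 at 740 of the brighter probe sets (3.75%), 551 of them higher in SB146 (2.79%). It differed from SB138 at 425 (2.15%), from SB165 at 409 (2.07%), from SB189 at 383 (1.94%), from SB33 at 308 (1.56%), and from SB15 and SB53 at 297 each (1.5%). Correlations of levels over the brighter probe sets ranged from 0.98 with SB15 to 0.9651 with SB80, and are a description, since probe sets are not replicates.

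Of the 421 called probe sets, 7 passed in no pair, 31 in 1 pair, 104 in 2, 98 in 3, 94 in 4, 60 in 5, 20 in 6 and 7 in all 7. At all but the last 7, the pair with at least 1 other line did not pass.

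**Figure D5:**
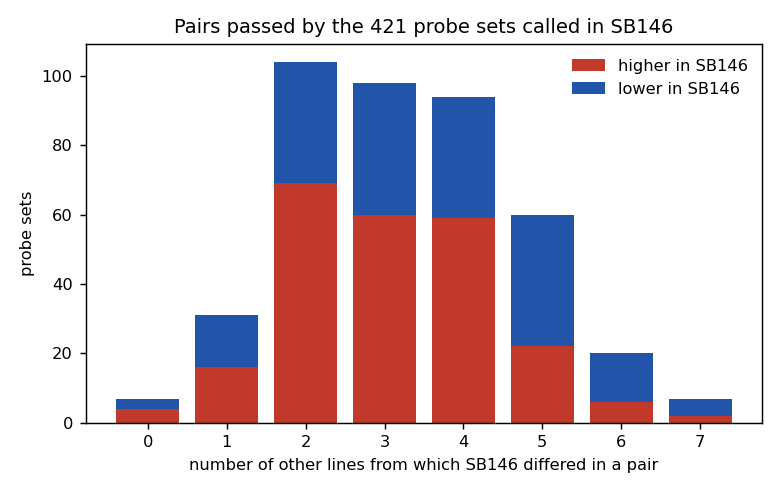
Number of called probe sets (vertical axis) by the number of other lines from which SB146 differed in a direct pair (horizontal axis), with red for higher and blue for lower in SB146. The bars peak at 2 lines (104 probe sets), and 7 probe sets passed against all 7 lines.

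The 7 that passed against every line are 0.0355% of the brighter probe sets, 2 higher (0.0101%) and 5 lower (0.0253%), and none has a gene in the annotation. In the fit of the brighter probe sets alone 16 passed against every line, 31.2% of them higher. Ta.1688 read 6.97 and 6.66 in SB146, and from 4.93 to 5.90 in the other arrays. SB15 and SB53 were the nearest lines, and the groups did not overlap. The difference was 1.52 (SE 0.0728, limma adjusted p = 6.2e-05). TaAffx.105251 was the other higher one, at 7.09 and 7.05 against 6.63 to 6.82, a difference of 0.33.

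The 5 lower ones were 1 probe set each of Ta.6734 (-2.45), Ta.8934 (-1.08), Ta.28501 (-0.84), TaAffx.24508 (-0.64) and Ta.22686 (-0.48). Ta.8934 read 5.43 and 5.49 in SB146, and from 6.31 to 6.90 in all others. Ta.28501 read 6.98 and 6.79 against 7.52 to 7.92. TaAffx.24508 read 7.04 and 7.03 against 7.44 to 7.95, and Ta.22686 7.98 and 8.13 against 8.42 to 8.66. The other lines lay close together on these 4 probe sets, within 0.6, and SB146 was below all of them. Apart from that of Ta.6734, whose call ended with the other lines as 1 group, the calls of these 7 against the other lines held in all alternatives tried.

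Cluster Ta.6734 stood lowest in SB146 on its 3 brighter probe sets, though the 2 arrays disagreed in size. The one that passed in all pairs read 6.88 and 6.05 against 7.82 to 10.08. The next read 7.01 and 3.55 against 8.40 to 11.08, and the last 6.76 and 4.22 against 8.41 to 11.10. The differences of the last pair were -4.35 (SE 0.656, limma adjusted p = 0.0219) and -4.17 (SE 0.501, limma adjusted p = 0.00709). Both SB146 arrays were below all others on each probe set. The other lines also varied, with SB80 and SB165 highest. The call with the difference of -4.35 ended without SB80, without SB165, without both and with the other lines as 1 group. That with -4.17 ended when both lines were left out.

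Both SB146 arrays lay outside the range of the other 14 at 707 brighter probe sets (3.58%), 351 above (1.78%) and 356 below (1.8%). The same count in the other lines ran from 259 (SB33) to 1598 (SB80). Of the 707 in SB146, 176 were also called (0.892%), 88 in each direction (0.446%). The widest gaps above the nearest line were those of Ta.27503 and cluster Ta.1120. Ta.27503 read 7.30 and 8.34, and from 4.63 to 6.53 in the others with SB165 nearest. Its difference of 2.68 (SE 0.315, limma adjusted p = 0.00645) held in all alternatives tried. In cluster Ta.1120, 1 probe set read 8.45 and 8.24, with SB15 (7.24 and 7.39) and SB165 (6.77 and 7.47) next and SB189 lowest, and was higher by 2.43 (limma adjusted p = 0.00904). The second probe set was higher by 2.25. Its call ended without SB80, alone or with SB165, without either SB146 array and with the field replicate as a block. Below the nearest line, Ta.13989 read 5.43 and 5.48 against 6.48 to 8.99, and was lower by 2.16 (limma adjusted p = 0.0077). Its call and those of both Ta.1120 probe sets ended with the other lines as 1 group.

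The 421 called probe sets fell into 378 clusters. 137 of these had more than 1 brighter probe set, and in 102 of the 137 a single probe set was called. 35 had 2 or more called, 33 of them in 1 direction. In the 2 exceptions, Ta.14571 and Ta.10329, the directions were opposed. 1 probe set of Ta.14571 read 8.97 and 9.64 in SB146 and 9.38 and 9.52 in SB33, against 3.92 to 6.88 elsewhere, a difference of 3.67. Another read 3.12 and 3.13 in SB146 and 3.12 and 3.15 in SB33, against 5.93 to 7.18, a difference of -3.09. The third probe set read 8.95 and 8.93 in SB146 and 8.78 to 9.30 in the others. SB33 and SB146 thus shared both levels, and the third probe set was not called. In Ta.10329 the 3 called of 21 brighter probe sets differed by 0.70, 0.54 and -0.59.

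No brighter or dimmer probe set was on or off in SB146 alone. With on set at 5 or more in both arrays and off at 3.5 or less in all arrays of the other lines, SB146 had 0 probe sets on alone and 0 off alone. SB165 had 5 on alone and SB80 had 9 off alone. Among called probe sets with a mean under 5 and both SB146 arrays at 5 or more, 1 of cluster Ta.24195 came nearest. It read 5.28 and 5.08 in SB146 against 2.82 to 4.27 in the others. Uncalled probe sets and the off direction were not searched for near cases. Over all 61115 probe sets 605 were called (0.99%), 184 of them with a mean under 5. Of these 184, 105 were higher and 79 lower, 68 had a difference of 1 or more, and 44 had one under 0.1. At 21 both SB146 arrays reached 5. Over all probe sets 38 passed against every line (0.0622%), and 27 of them had both SB146 arrays under 3.5. The 38 became 1146 without replicate 2 of SB146 and 823 without replicate 1, each of which leaves SB146 with 1 array.

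The threshold has no gap around it. Just inside lay Ta.24693 (0.90), Ta.13921 (-0.31) and TaAffx.7254 (0.23), with adjusted p-values of 0.0486 to 0.0497. Just outside lay Ta.8883 (-0.15), Ta.20001 (1.15) and Ta.3277 (-0.22), with 0.0501 to 0.0511. A further 154 brighter probe sets had a difference of 1 or more and were not called, 30 of them with 2 or more.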

How the data were processed

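The deposited table holds 1 log2 value per probe set and array, and RMA and GCRMA were used, per the submitters' processing notes, which give no versions and do not say which made the table. The scale is not stated and was read as log2 from the range of values. Both methods draw arrays to a common distribution, so a shift shared by most transcripts would not show. The 2 arrays per line are biological field replicates, per the labels. Of 61290 probe sets, 175 controls were left out and 61115 tested, of which 11747 were constant. limma 3.58.1 in R 4.3.3 (lmFit, eBayes) fitted 1 mean per line with 8 residual and 0.39 prior degrees of freedom. SB146 was set against the mean of the 7 other line means, with Benjamini-Hochberg adjustment over all 61115 probe sets and a threshold of 0.05. Calls were then read at the 19740 with a mean of 5 or more.

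The platform annotation gives a gene to 1273 probe sets (771 genes), of which 1272 were found in RefSeq for IWGSC CS RefSeq v2.1. The other 59842 are unnamed here, and neither coordinates nor sequences were used.

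SB146 and the gene lists were chosen with earlier results of these data known. Genes were named by rule. All called annotated genes were taken (1 probe set each), with the 6 largest differences and the 4 largest gaps to the nearest line in each direction, up to 4 members of a list, and the 3 probe sets on either side of the threshold. Clusters Ta.2789, Ta.14571 and Ta.10329, the 7 probe sets apart from every line and the uncalled genes with large differences were named after their values were seen. The code of the fit was first tested on simulated data. The fit was repeated with the other lines as 1 group, without single arrays or lines, with the field replicate as a block, with array weights and another prior, with other scalings (quantile, equal medians), with filters on low values and with a minimum difference.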

Additional observations from a re-analysis of the deposited data

Results flagged for a closer look

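Signals appeared among the controls, which no comparison uses, above the level of the 64 reporter controls. They are not particular to SB146. In the other arrays the reporter controls read 2.47 to 2.5 and the 18S rRNA control 6.12 to 12.1. The 18S rRNA control was up to 6.11 (log2) above them in SB146, where its arrays read 5.11 and 8.59. The poly-A spike controls were up to 7.5 above them, at 9.99 and 9.88 in SB146 and 8.95 to 10.4 in the other arrays, and SB146 was the second of the lines from the top.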

How the results depend on the processing

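The count of 605 over all probe sets became 960 without probe sets at the floor, 940 with arrays shifted to equal medians, 249 with a minimum difference of 1, 127 with the other lines as 1 group, and 387 without SB80 and SB165, an alternative added after seeing the data. The 421 brighter ones became 750, 735, 181, 29 and 241 under the same settings, 901 when the 19740 alone were tested (this count was also added after seeing the data), and 650 when only probe sets with a mean of 7 or more were tested. Fewer probe sets were tested in these filters. The prior also changed, from 0.39 degrees of freedom to 3.09 in the fit of the 19740 alone, and the share of each in the change was not tested. The 38 apart from every line became 25 without the floor and 21 with equal medians, where 57.1% were higher against 84.2%. Of the 38, 7 had a mean of 5 or more. The fit of the brighter probe sets alone gave 16 where the main fit gave these 7, and 31.2% of the 16 were higher. For the other moves the cause was not tested either. Leaving out 1 array gave 912 to 1934 over all probe sets, with 28.2% to 83.6% of them higher, 416 to 623 brighter ones, and 29 to 1146 apart from every line. Quantile normalization (489 brighter), another prior (291), array weights (357) and leaving out SB80 (305) or SB165 (373) stayed within 1.5 times. A fit with field replicate as the block gave 518, 362 and 35. The replicate differences of 2 lines, matched by number, correlated at over 0.1 in 16 of 28 pairs of lines (-0.21 to 0.38, median 0.14). The main fit did not take the numbers as pairs, so a shared effect of field replicate would stay in its error. Of 43 called probe sets described singly, 34 lost the call with the other lines as 1 group, 10 without SB80, 6 without SB165, 17 without both, 12 without replicate 1 of SB146 and 12 without replicate 2. None of the 43 changed sign. Testing the brighter probe sets alone ended none of the 43. Uncalled tubulins and fructan exohydrolases near 0 did change sign. Without 1 array the second 6-FEH probe set ranged from -0.35 to 0.406, 1-FEHw2 from -0.0807 to 0.00545, tubb3 from -0.0933 to 0.133, Tubb4 from -0.237 to 0.0938 and TUBA from -0.0759 to 0.0134. The second 6-FEH probe set became -0.0184 after quantile normalization, and tubb3 became -0.00434 with equal medians, -0.0232 without SB80 and -0.00274 without SB80 and SB165. With 2 arrays per line, small differences of variable transcripts could not be resolved.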
